A study of Mus musculus with 9 samples.

Results

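Transcripts of 8 genes, the matrix metalloproteinases Mmp3, Mmp9, Mmp10, Mmp12 and Mmp14 and the tissue inhibitors of metalloproteinases Timp1, Timp2 and Timp3, were followed in tumour cells from mouse spheroids. The 8 genes were taken by name from a table of 12339 genes. All 8 passed a filter on low reads that left 12326 genes for testing. The tumour cells, labelled KP-GFP and of the C57BL/6 strain, carry GFP, and all 3 groups consist of these cells. Spheroids were started from 2500 tumour cells and kept for 7 days, either alone, together with 5000 alveolar macrophages (lung tissue-resident macrophages, TRMs) or together with 5000 monocytes from bone marrow. After pooling and dissociating 32 spheroids per condition, cells with GFP were collected by flow sorting and their RNA was sequenced. Each group has 3 libraries, so a library stands for a pool of spheroids. The sources used here do not give the genotype behind the letters KP or the number of clones in the line. Nor do they state whether each replicate was grown as a culture of its own, and p-values therefore cover the spread between libraries alone, which may be technical.

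Matrix metalloproteinases (MMPs) are zinc-dependent endopeptidases that cut collagens, laminins, proteoglycans and other proteins outside the cell. Most are secreted as inactive proenzymes whose propeptide must be removed, and TIMPs hold the active enzymes in check by binding their catalytic site. In lung tumours, MMPs are known from both tumour cells and the macrophages and fibroblasts around them, and they take part in matrix breakdown, growth factor release and invasion. Values below are CPM scaled to the TMM library size (TMM is a factor for RNA composition), with 0.5 read added to every gene by the authors.

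Recovered reads per library ranged from 16001895 to 32771448. On the second principal component monocyte co-culture replicate 3 stood at -75.9 while the other 8 libraries lay between -32.9 and 50.3; results that move without it are named below. The labelled cell type was checked against epithelial markers: 7 of 9 were in the table, with sums of 13427 to 15248 CPM alone, 13052 to 16167 with TRMs and 9298 to 14327 with monocytes. Of these 7, the claudin Cldn4 fell with TRMs (1185 ± 208 to 739 ± 258 CPM, limma adjusted p = 0.0477), and Cldn4 (to 574 ± 148), Cldn7 (318 ± 24.0 to 158 ± 70.1) and E-cadherin, Cdh1 (1650 ± 97.6 to 869 ± 258 CPM), fell with monocytes (limma adjusted p = 0.00472, 0.00438 and 0.00173). The median log2 change of the 7 was -0.05 with TRMs and -0.59 with monocytes, and its part in the results below was not tested. The lung epithelial genes Nkx2-1 and Sftpc were the 2 markers with no row in it. A gene was called when limma's Benjamini-Hochberg adjusted p over all 12326 genes was under 0.05.

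With TRMs, 6 of the 8 genes rose (Mmp3, Mmp9, Mmp10, Mmp12, Mmp14 and Timp1), none fell and 2 did not pass (Timp2 and Timp3). Among all genes tested 10.2% rose, 8.15% fell and 18.4% were called in either direction, and scaling by library totals turned the split over all genes from 1257 higher and 1005 lower to 1003 higher and 1302 lower. With monocytes, 7 of the 8 rose (the same 6 and Timp2), against 14.7% of all genes higher, 12.7% lower and 27.3% called in either direction. The co-culture and the group alone did not overlap for 6 of the 8 genes with TRMs (39.3% of all genes, 20.8% with the co-culture higher) and for all 8 with monocytes (40.5% of all genes, 21.3% higher). The median log2 fold change of the 8 genes was 2.41 with TRMs and 2.32 with monocytes, and that of all genes was -0.002 and -0.02. The 8 genes were chosen with earlier results of these data known, so their shares beside all genes are a description only. Both comparisons share the 3 libraries of tumour cells alone. The count of 6 became 4 in limma-voom and was 5 or 6 with any 1 library left out, and that of 7 became 6 in limma-voom. In bulk RNA, a change in the share of cells that express a gene and a change in RNA per cell cannot be told apart.

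**Figure D1:**
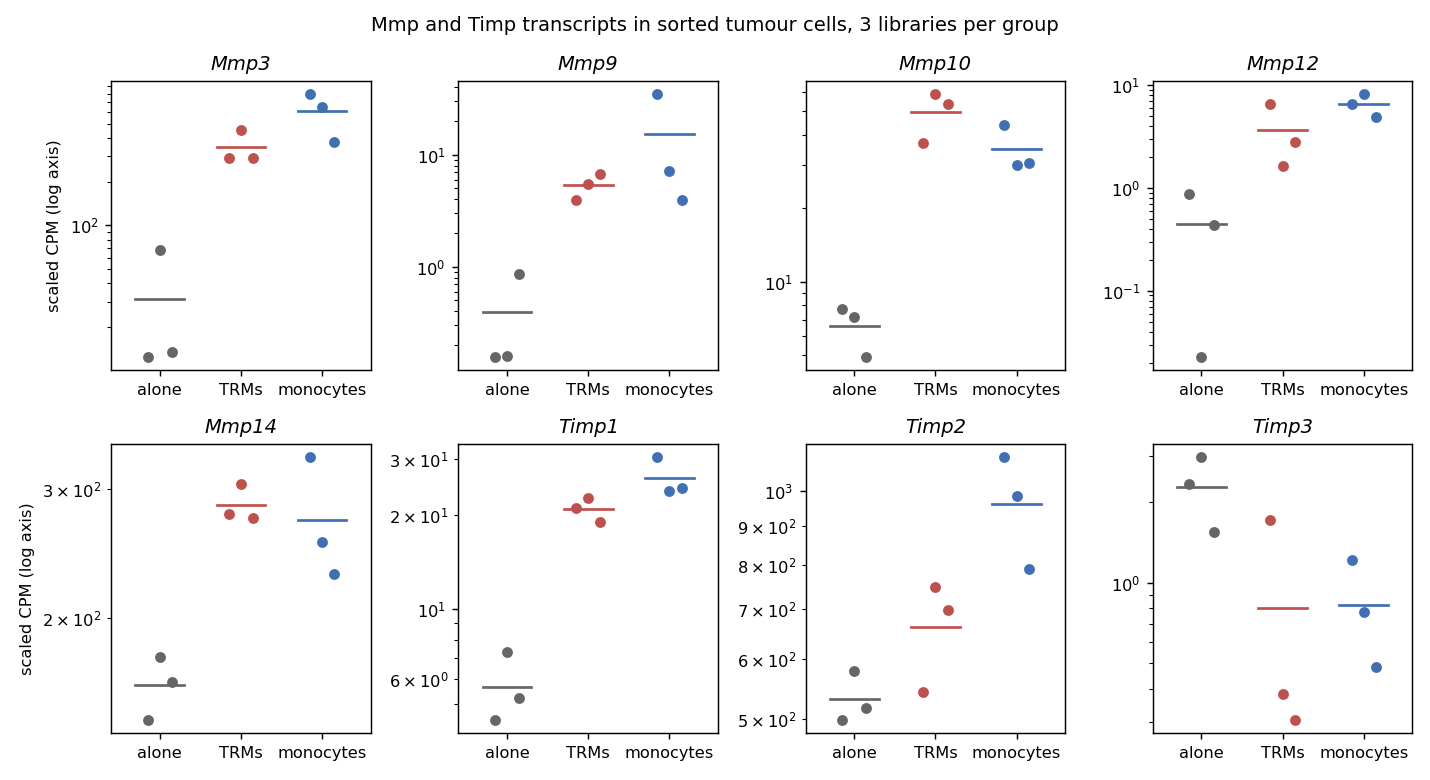
Scaled CPM of each gene (log axis, a separate scale per gene) in the 3 libraries of each group; points are libraries and lines are group means. For Mmp3, Mmp9, Mmp10, Mmp12, Mmp14 and Timp1 every co-culture library lies above every library of tumour cells alone.

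The stromelysins Mmp3 and Mmp10 are secreted enzymes that cut proteoglycans, laminin and fibronectin and can activate other pro-MMPs. With Mmp12 they lie in a cluster of MMP genes on mouse chromosome 9. In the GENCODE M21 annotation of mm10, Mmp3 occupies chr9:7445822-7455975, Mmp10 chr9:7502352-7510240 and Mmp12 chr9:7344381-7369499, all on the plus strand. Because these neighbours rose together, the 100 bases before their annotated starts are shown, from RefSeq on GRCm38.p6; for Mmp12 they precede the downstream of its 2 listed starts. Capitals mark the AP-1 motif TGAGTCA (searched on both strands as TGAGTCA or TGACTCA) and the TATA box TATAAA. The windows are chr9:7445722-7445821, chr9:7502242-7502341 and chr9:7347274-7347373, on the plus strand.
Mmp3: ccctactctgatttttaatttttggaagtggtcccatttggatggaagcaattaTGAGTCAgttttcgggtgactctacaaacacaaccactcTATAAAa
Mmp10: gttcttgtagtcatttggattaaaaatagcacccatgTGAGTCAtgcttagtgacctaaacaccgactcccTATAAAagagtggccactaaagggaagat
Mmp12: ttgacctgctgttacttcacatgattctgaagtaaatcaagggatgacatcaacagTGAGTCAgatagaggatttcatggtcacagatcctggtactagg
The AP-1 motif spans bases 46 to 40 before the start of Mmp3, 63 to 57 before that of Mmp10 and 44 to 38 before the downstream start of Mmp12. The window before the upstream Mmp12 start, which lies near the annotated gene start, holds no AP-1 match, and the data do not tell which start was used. RefSeq promoters were matched for 7 of the 8 genes (not Mmp9), with 8 windows in all. Of the 8 windows of 250 bases before a start, 3 hold the AP-1 motif, against 4.46% of all 32841 such windows. TATAAA is present in 2, those of Mmp3 and Mmp10, against 7.59% of all windows. It spans bases 7 to 2 before the start of Mmp3 and 29 to 24 before that of Mmp10. The PEA3 motif AGGAAG (both strands) is present in 5 of the 8 (29.5% of all windows), among them the upstream Mmp12 window, and ACGTG (both strands), the core of the hypoxia response element, in those of Mmp14 and Timp1 (16.6% of all windows). A match is a run of letters and not a site shown to be bound.

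Mmp3 was at 12.5, 67.4 and 13.4 CPM in the 3 libraries alone, at 290, 454 and 292 with TRMs and at 797, 652 and 373 with monocytes. Replicate 2 of the tumour cells alone stood above the other 2, and no co-culture library overlapped the group alone. Its rise was 15-fold with TRMs (log2 3.91, SE 0.50, limma adjusted p = 0.000166) and 25.8-fold with monocytes (log2 4.69, SE 0.50, limma adjusted p = 3.61e-05). Over the 19 alternatives the folds lay between 11.1 and 26.1 and between 19.2 and 44.7, each highest without alone replicate 2. Mmp3 shared 8.39% of its 50-base windows with Mmp10 or the predicted gene Gm15244, and Mmp10 shared 8.37% with Mmp3, so some reads may be split between the stromelysins.

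Mmp10 was at 7.70, 7.18 and 4.91 CPM alone, at 36.9, 58.7 and 53.2 with TRMs and at 43.8, 30.1 and 30.6 with monocytes. Both co-culture groups lay apart from the group alone. It rose 7.52-fold with TRMs (log2 2.91, SE 0.24, limma adjusted p = 7.82e-06) and 5.3-fold with monocytes (log2 2.41, SE 0.24, limma adjusted p = 3.11e-05). Under the 19 alternative settings the fold lay between 6.55 and 8.63 with TRMs and between 4.62 and 5.78 with monocytes. The stromelysins differed in which co-culture had the higher mean: Mmp3 was higher with monocytes and Mmp10 with TRMs. Neither difference between the co-cultures passed the test (limma adjusted p = 0.605 and 0.453).

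Mmp12, the macrophage metalloelastase, degrades elastin and is best known as a product of alveolar macrophages. It was low throughout, with 19, 0 and 14 reads alone (0.87, 0.0226 and 0.436 CPM), 104, 27 and 68 reads with TRMs (6.54, 1.62 and 2.79 CPM) and 122, 195 and 115 reads with monocytes (6.62, 8.19 and 4.86 CPM). The groups with added cells did not overlap the group alone. Its call with TRMs (log2 3.92, SE 1.06, limma adjusted p = 0.0206) was lost without TRM replicate 1 (0.0799) or 3 (0.0543) and in limma-voom (0.0617). With monocytes the log2 difference was 4.97 (SE 1.06, limma adjusted p = 0.00383). The fold depends on the setting: with TRMs it was 15.1, but 3.01 with 1 CPM added, 5.02 without alone replicate 2 (the library with 0 reads), 8.43 in edgeR and 31.1 without alone replicate 1. With monocytes it was 31.3, and 5.31, 10.4, 15.2 and 64.5 in the same settings. On the opposite strand Mmp1b overlaps 2.17% of the Mmp12 exons.

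The cluster map places these 3 genes among 10 listed MMP genes of chromosome 9, of which 5 were in the table. Of these 5, 4 rose in each co-culture, against 10.2% of all genes with TRMs and 14.7% with monocytes: Mmp3, Mmp10 and Mmp12, already counted above, and Mmp13. Mmp13, a collagenase that cleaves fibrillar collagens, rose 4.27-fold with TRMs (16.5 ± 3.36 to 71.6 ± 20.0 CPM, SD, n = 3; limma adjusted p = 0.000166) and 3.81-fold with monocytes (to 64.8 ± 21.2 CPM; limma adjusted p = 0.000214). Mmp1b, the last of the 5 genes in the table, was at 0.272 ± 0.412 CPM alone, 0.365 ± 0.158 in the TRM group and 0.893 ± 0.771 in the monocyte group. It did not pass in either comparison (limma adjusted p = 0.464 and 0.207). Mmp1a, Mmp7, Mmp8, Mmp20 and Mmp27 had no row in the table and were not analysed here.

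**Figure D2:**
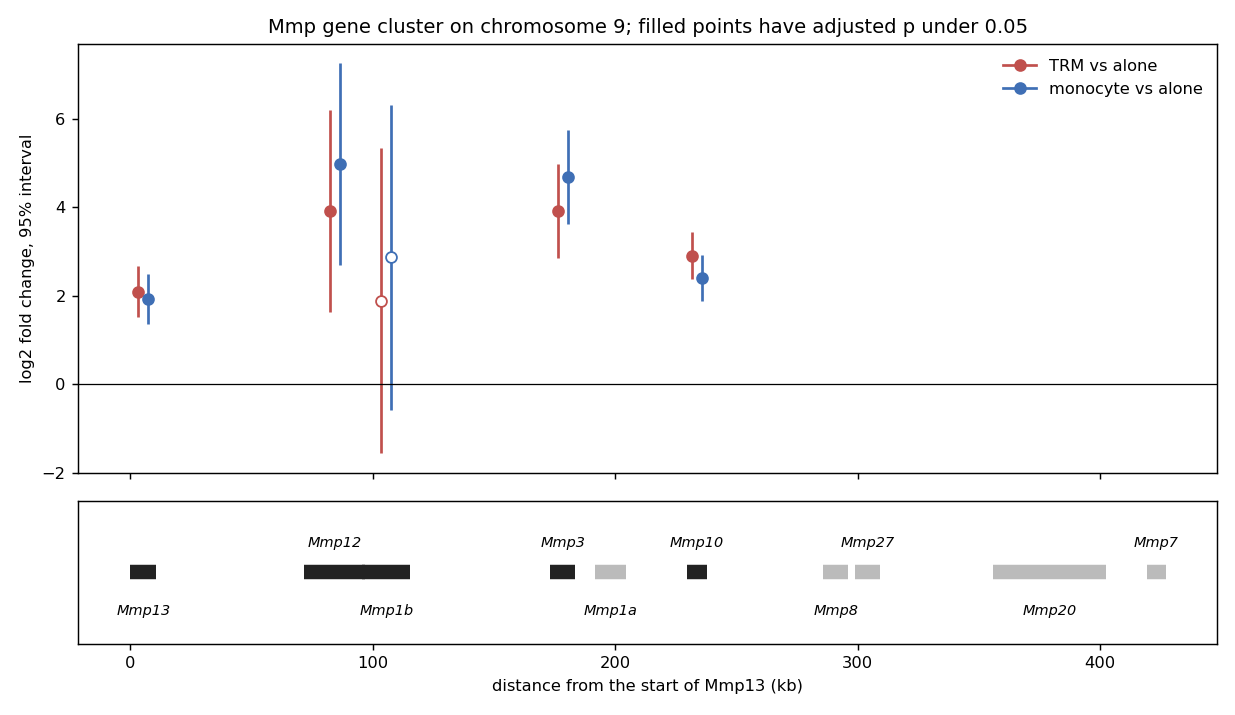
Above, log2 fold change against tumour cells alone with its 95% interval for the cluster genes with values (filled, adjusted p under 0.05); below, the genes to scale by distance from the start of Mmp13 (black, in the table; grey, no row in the table). Mmp13, Mmp12, Mmp3 and Mmp10 lie above 0 in both co-cultures, and the intervals of Mmp1b include 0.

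Mmp9, gelatinase B, cleaves denatured collagens and the type IV collagen of basement membranes. Its gene lies at chr2:164940780-164955850 on the plus strand. It was read 3, 3 and 28 times alone (0.156, 0.159 and 0.856 CPM), 62, 93 and 164 times with TRMs (3.91, 5.51 and 6.70 CPM) and 641, 170 and 94 times with monocytes (34.7, 7.14 and 3.98 CPM). Monocyte co-culture replicate 1 stood far above the other 2 of its group, and no co-culture library overlapped the group alone. The rise with TRMs was 19.0-fold (log2 4.24, SE 0.79, limma adjusted p = 0.00237) and that with monocytes 35.9-fold (log2 5.17, SE 0.79, limma adjusted p = 0.00043). Both calls were lost in limma-voom (adjusted p = 0.168 and 0.0748). Without alone replicate 3 the folds were 33.3 and 63.2. With monocytes the fold was 19.3 without monocyte replicate 1 and 56.9 without monocyte replicate 3. With 1 CPM added the folds were 4.63 and 8.34.

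Since Mmp9 and Mmp12 are also genes of myeloid cells, markers of those cells are given beside them. Of 14 macrophage markers 8 were in the table, with sums of 23.1 to 62.6 CPM alone, 65.8 to 130.3 with TRMs and 62.5 to 73.4 with monocytes. With TRMs 1 of these 8 rose and none fell (median log2 0.91), and with monocytes 1 rose and 2 fell (median log2 0.03). The mannose receptor Mrc1, the gene that rose in both, went from 5.12 ± 0.211 CPM to 32.9 ± 9.27 with TRMs and 39.2 ± 7.49 with monocytes (limma adjusted p = 1.46e-05 and 8.28e-06). Lyz2 was at 22.3 ± 14.0 CPM alone, 47.3 ± 31.1 with TRMs and 21.8 ± 7.71 with monocytes. In the same order Csf1r was at 3.02 ± 0.764, 5.91 ± 0.725 and 3.37 ± 0.375 CPM. Mertk was at 2.58 ± 0.948, 4.55 ± 1.49 and 2.49 ± 1.28 CPM. Cd68 was at 1.05 ± 0.134, 2.29 ± 1.32 and 1.32 ± 1.21 CPM. Itgax was at 0.409 ± 0.271, 0.604 ± 0.498 and 0.397 ± 0.192 CPM. None of these passed against the group alone. Adgre1, C1qa, C1qb, C1qc, Marco and Ear2 had no row. The alveolar macrophage gene Siglecf was at 1.44 ± 0.371 CPM alone and at 0.295 ± 0.26 with TRMs, and it fell to 0.121 ± 0.0839 with monocytes (limma adjusted p = 0.0413). Chil3, a chitinase-like protein of alveolar macrophages, was at 10.1 ± 6.17 CPM alone and 5.04 ± 3.75 with TRMs and fell to 0.766 ± 0.443 with monocytes (limma adjusted p = 0.00659). Of 12 monocyte markers 8 were in the table, with sums of 152 to 275, 127 to 262 and 131 to 219.9 CPM. Most of each sum came from Cd14, at 166 ± 55.8 CPM alone, 128 ± 65.1 with TRMs and 123 ± 37.6 with monocytes. With TRMs 1 of these 8 markers rose and none fell (median log2 -0.42), and with monocytes 1 rose and 2 fell (median log2 -0.50). F13a1 rose from 0.96 ± 0.303 CPM to 13.4 ± 3.82 with TRMs and 13.4 ± 5.38 with monocytes (limma adjusted p = 4.14e-05 and 3.61e-05), while the leukocyte antigen Ptprc was at 1.93 ± 1.34, 1.95 ± 2.19 and 0.241 ± 0.287 CPM and fell with monocytes (limma adjusted p = 0.0361). None of 10 neutrophil markers was in the table. Of the fibroblast, endothelial and lymphocyte markers 3 of 9, 2 of 6 and 1 of 8 were in it, and their sums stayed at or under 11.2, 6.13 and 1.90 CPM in every library. The part of these markers in the results for Mmp9 and Mmp12 was not tested.

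Mmp14, or MT1-MMP, is anchored in the plasma membrane, cleaves fibrillar collagen at the cell surface and activates pro-MMP2 in a complex with Timp2. Its gene lies at chr14:54431612-54445364 on the plus strand. It was at 145, 177 and 163 CPM alone, at 277, 305 and 273 with TRMs and at 332, 254 and 229 with monocytes. The spread was small alone and with TRMs and wider with monocytes (272 ± 53.3 CPM). Neither co-culture overlapped the group alone. It rose 1.76-fold with TRMs (log2 0.82, SE 0.15, limma adjusted p = 0.00214) and 1.66-fold with monocytes (log2 0.73, SE 0.15, limma adjusted p = 0.00292). Over the alternatives these folds stayed between 1.66 and 1.85 and between 1.5 and 1.8. Mmp2, the gelatinase that Mmp14 activates, was at 1.59 ± 1.30 CPM alone, 0.236 ± 0.202 with TRMs and 0.441 ± 0.367 with monocytes and did not pass (limma adjusted p = 0.171 and 0.347).

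Timp1, a secreted inhibitor of most soluble MMPs, lies at chrX:20870166-20874735 on the plus strand, within Syn1, which is on the other strand and shares no exon base with it. It was at 4.44, 7.31 and 5.21 CPM alone, at 21.0, 22.6 and 19.0 with TRMs and at 30.6, 23.7 and 24.3 with monocytes. Every co-culture library lay above the group alone, and every library with monocytes lay above every library with TRMs. The rise was 3.76-fold with TRMs (log2 1.91, SE 0.23, limma adjusted p = 0.000121) and 4.7-fold with monocytes (log2 2.23, SE 0.23, limma adjusted p = 3.31e-05). Over the alternatives the folds lay between 3.33 and 4.33 and between 4.13 and 5.41. Syn1 was at 0.756 ± 0.463 CPM alone and at 1.64 ± 0.649 and 1.08 ± 0.375 in the co-cultures.

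Timp2, which inhibits MMPs and also joins Mmp14 at the cell surface, lies at chr11:118301069-118355740 on the minus strand. Its values were 499, 579 and 517 CPM alone, 542, 748 and 698 with TRMs and 1110, 984 and 788 in the monocyte group. TRM replicate 1 lay within the range of the group alone, whereas the libraries with monocytes lay above all others. It rose 1.79-fold with monocytes (log2 0.84, SE 0.16, limma adjusted p = 0.00205). With TRMs the log2 difference was 0.31 (95% interval -0.04 to 0.66, limma adjusted p = 0.22). Cep295nl lies on the same strand within Timp2, shares no exon base with it and was at 1.36 ± 0.867 CPM alone.

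Timp3, the inhibitor that binds to the matrix and also blocks several ADAM sheddases, lies at chr10:86300372-86349506 on the plus strand. It had 52, 65 and 51 reads alone (2.34, 2.97 and 1.55 CPM), 27, 6 and 7 with TRMs (1.72, 0.383 and 0.305 CPM) and 22, 18 and 11 with monocytes (1.22, 0.775 and 0.484 CPM). TRM replicate 1 overlapped the group alone, and no library with monocytes did. The log2 difference was -1.91 with TRMs (95% interval -3.62 to -0.21, limma adjusted p = 0.115) and -1.52 with monocytes (95% interval -3.23 to 0.19, limma adjusted p = 0.177), so neither passed. Without TRM replicate 1 the first was -2.69 with an adjusted p of 0.0349. Timp3 lies within Syn3, which is on the other strand and overlaps 21.3% of the Timp3 exons. Syn3 fell from 6.19 ± 0.823 CPM to 1.91 ± 0.493 with TRMs and 2.07 ± 0.458 with monocytes (limma adjusted p = 0.00886 and 0.00947). No source used here says that the libraries keep the strand, and where Timp3 and Syn3 overlap their reads cannot be told apart.

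Between the co-cultures, limma called 0 of the 8 genes, and edgeR and DESeq2 also called 0. At an unadjusted p under 0.05 there was 1, Timp2. Over all genes 0.398% were called, 0.325% higher with TRMs and 0.073% lower. Timp2 was at 663 ± 107 CPM with TRMs and 961 ± 162 with monocytes, a log2 difference of -0.54 (95% interval -0.89 to -0.19, limma adjusted p = 0.184). The 95% intervals of the TRM minus monocyte difference ran from -1.85 to 0.29 for Mmp3, from -0.02 to 1.03 for Mmp10, from -0.24 to 0.41 for Mmp14 and from -0.82 to 0.17 for Timp1. For Mmp9, Mmp12 and Timp3 they were wider (-2.62 to 0.78, -3.33 to 1.23 and -2.10 to 1.31). These intervals allow differences of over 1 log2 unit for Mmp3, Mmp9, Mmp10, Mmp12 and Timp3, so equal levels in the co-cultures are not shown. Groups did not overlap for Timp1 and Timp2, both lower with TRMs. That is 2 of 8 genes against 16.2% of all genes (7.55% with TRMs higher and the rest with TRMs lower).

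**Figure D3:**
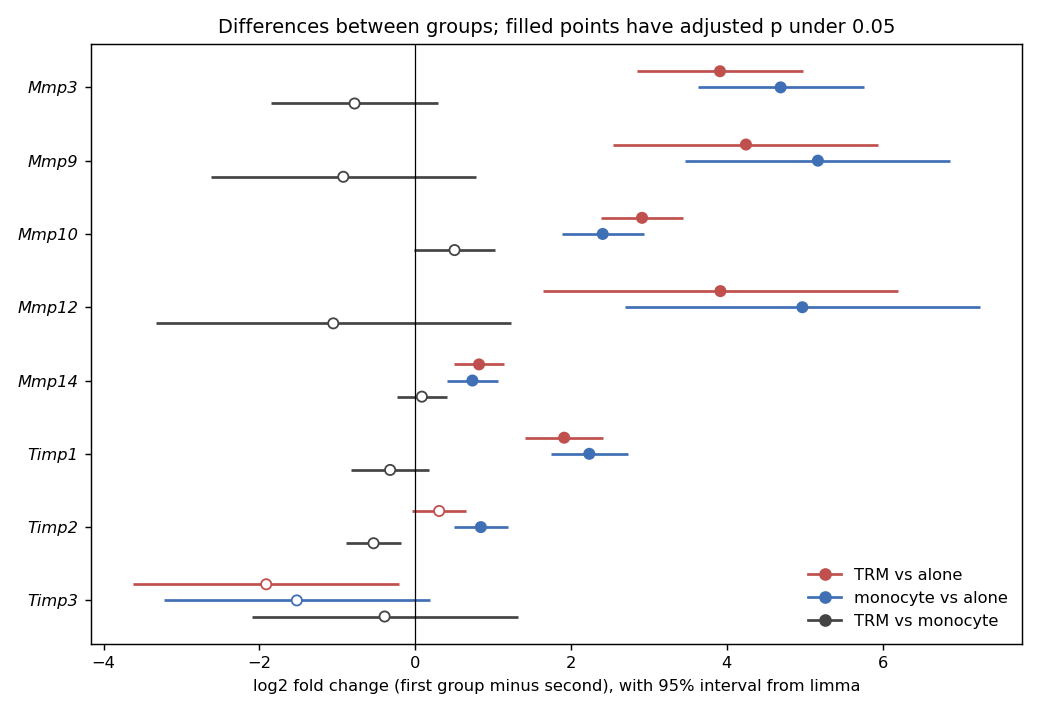
Log2 fold change (first group minus second) with its 95% interval from limma for the 3 comparisons; filled points have an adjusted p under 0.05. Mmp3, Mmp9, Mmp10, Mmp12, Mmp14 and Timp1 are filled in both comparisons with tumour cells alone, Timp2 in that with monocytes, and no gene in that between the co-cultures.

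To set genes side by side, CPM was divided by the length of the merged exons. In tumour cells alone Timp2 was at 137 ± 10.8 CPM per kb (SD, n = 3), Mmp14 at 27.2 ± 2.66, Mmp3 at 17.3 ± 17.4, Timp1 at 6.37 ± 1.67 and Mmp10 at 3.83 ± 0.86. Timp3 (0.281 ± 0.0873), Mmp9 (0.11 ± 0.114) and Mmp12 (0.0612 ± 0.0586) stood at the bottom. The ranges of Mmp14 and Mmp3, of Mmp3 and Timp1, of Timp3 and Mmp9 and of Mmp9 and Mmp12 overlapped. Within a library Mmp3 was above Timp1 in 3 of 3, while the order of each of the other overlapping pairs was turned in 1 of 3. With TRMs the order began with Mmp3 (192 ± 52.3) and Timp2 (170 ± 27.5), whose ranges overlapped and whose order was turned in 1 of 3 libraries, followed by Mmp14 (47.8 ± 2.88), Mmp10 (28.8 ± 6.57) and Timp1 (23.5 ± 2.04). The ranges of Mmp10 and Timp1 overlapped too, with the order turned in 1 of 3 libraries. With monocytes it began with Mmp3 (337 ± 120) and Timp2 (247 ± 41.6), again overlapping but with Mmp3 higher in 3 of 3 libraries, then Mmp14 (45.6 ± 8.95), Timp1 (29.5 ± 4.27) and Mmp10 (20.2 ± 4.51). Among family genes outside the 8, Mmp15 was at 54.7 ± 11.4 CPM per kb alone, above Mmp14. The merged exons of Mmp12 and Timp3 span 7.24 and 8.14 kb over all annotated transcripts, and their values per kb are lower for it if shorter transcripts are made.

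**Figure D4:**
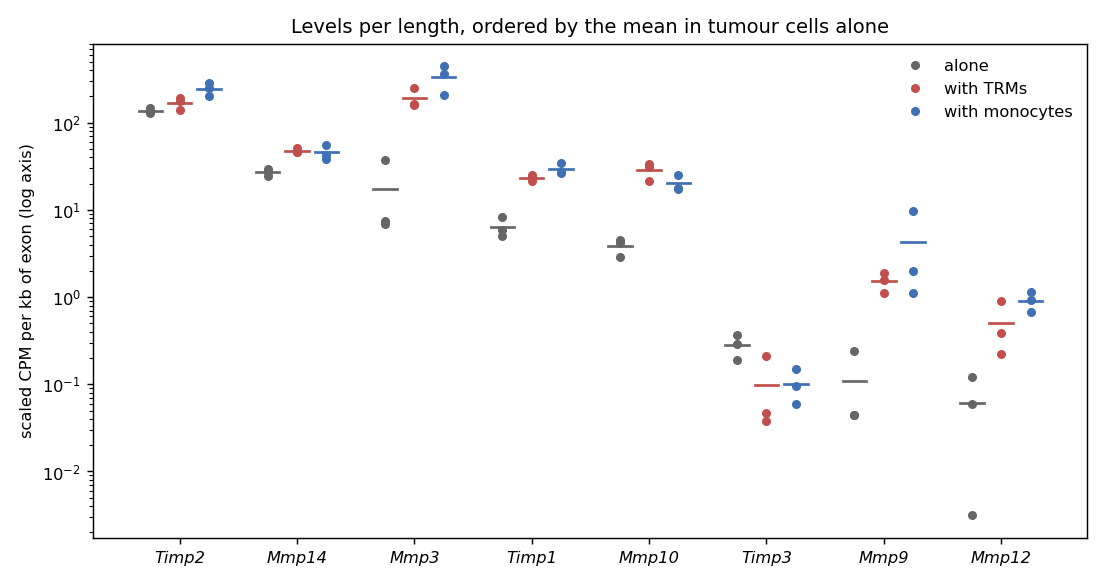
Scaled CPM per kb of merged exon (log axis) for the 8 genes, ordered by their mean in tumour cells alone; points are libraries and lines group means. Timp2 is highest alone, while Mmp3 has the highest mean in both co-cultures, with a range that overlaps that of Timp2.

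The balance of protease and inhibitor transcripts was described within each library, with no test. The 5 Mmp genes summed to 35.9, 71.3 and 38.0 CPM per kb alone, 231, 339 and 241 with TRMs and 534, 425 and 265 in the monocyte group. The 3 Timp genes summed to 133, 157 and 139 alone, 163, 218 and 200.5 with TRMs and 319, 279.5 and 229.7 in the monocyte group. The ratio of these sums was 0.332 ± 0.105 alone (SD, n = 3), 1.39 ± 0.179 with TRMs and 1.45 ± 0.267 with monocytes. It lay below 1 in all 3 libraries alone and above 1 in all 6 co-culture libraries. The Mmp sum leaves out other family genes with values of similar size. Mmp15 was at 54.7 CPM per kb alone, 32.5 with TRMs and 24.5 with monocytes. Mmp11 was at 20.9, 32.8 and 38.7 and Mmp13 at 6.19, 26.8 and 24.2. The ratio and its place around 1 therefore hold for the 8 genes only. Mmp3 made up 19.3%, 52.5% and 19.6% of the Mmp sum alone, 67.2% to 74.3% with TRMs and 78.1% to 85.1% with monocytes. Mmp14 made up 41.6% to 72.1% alone and 10.0% to 20.1% in the co-cultures. Timp2 made up at least 85.4% of the Timp sum in every library.

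The ratio of Mmp14 to Timp2 was 0.19, 0.2 and 0.207 alone, 0.334, 0.266 and 0.256 with TRMs and 0.195, 0.169 and 0.19 in the monocyte group. It was higher in all libraries with TRMs than in any other. The ratio of Mmp10 to Timp1 was 0.894, 0.506 and 0.486 alone, 0.908, 1.34 and 1.45 with TRMs and 0.739, 0.654 and 0.651 in the monocyte group, so that the monocyte group lay within the range alone.

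**Figure D5:**
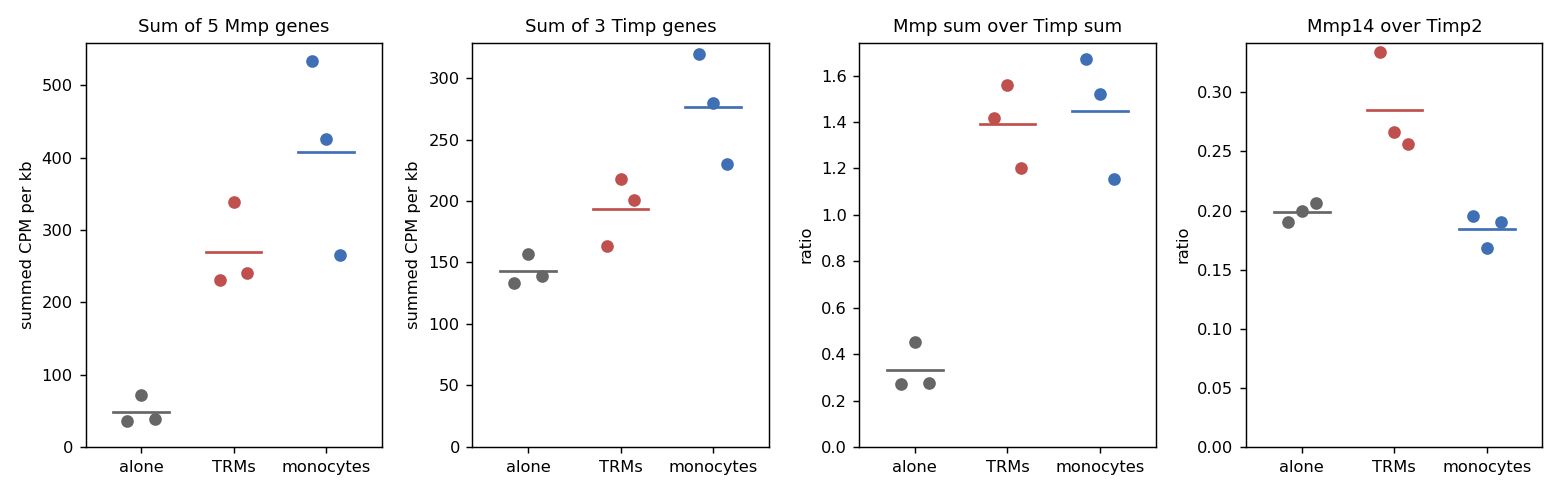
Summed CPM per kb of the 5 Mmp genes and of the 3 Timp genes, the ratio of these sums, and the ratio of Mmp14 to Timp2, in each library (points) with group means (lines). The sum ratio is 0.332 alone and 1.39 and 1.45 in the co-cultures, and Mmp14 over Timp2 is highest in the 3 libraries with TRMs.

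Across the 9 libraries the nearest profiles among the 8 genes were those of Mmp14 and Timp2, which differed by 0.29 log2 units (root mean square after centring each gene on its own mean), and of Mmp10 and Timp1 (0.52). Mmp3 and Mmp10 differed by 1.14. Among 11676 other genes the nearest to Mmp3 were Ptprn (0.38), Dynap (0.45) and the aggrecanase Adamts4 (0.48), and those nearest to Mmp10 were Ak4 (0.27), Abcb1a (0.29) and the lysyl oxidase Loxl2 (0.33). The nearest to Mmp14 were Fam129b (0.08), Sept9 (0.09) and Furin (0.09), and those nearest to Timp1 were Cd300lb (0.17), Uhrf1 (0.17) and Oaf (0.20). Timp2 was nearest to Atp1b3, Sik3 and Fignl1 (each 0.12). The nearest genes lay further off for Mmp9 (Sele, F13a1 and Psg22, at 0.91 to 0.99) and Mmp12 (Sec1, Mxra8 and Prkar1b, at 0.76 to 0.88). Mmp9 and Mmp12 had only 34 and 33 reads over the libraries alone, and the part of low reads in their distances was not tested. All these distances are descriptions of 9 libraries that share their groups. The differences were not scaled to the spread of a gene, so genes that change little lie near each other whatever their pattern.

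Of 20 other genes of the family, the MMP inhibitor Reck counted among them, 10 were in the table. With TRMs 3 rose, 1 fell and 6 did not pass (18.4% of all genes called; median log2 0.79, against -0.002 for all genes), and with monocytes 5 rose, 1 fell and 4 did not pass (27.3% of all genes called; median 1.24, against -0.02). Mmp24, a membrane-type MMP, rose from 2.53 ± 0.533 CPM to 8.74 ± 2.66 with TRMs and 8.02 ± 3.43 with monocytes (limma adjusted p = 0.00707 and 0.00893). Mmp19 rose from 0.448 ± 0.29 CPM to 2.65 ± 0.575 and 2.28 ± 0.851 (limma adjusted p = 0.00914 and 0.0114). Mmp15, a membrane-type MMP, fell from 295 ± 61.3 CPM to 175 ± 59.3 with TRMs and 132 ± 27.4 with monocytes (limma adjusted p = 0.0318 and 0.0025). Reck, a membrane-anchored inhibitor, rose with monocytes from 1.20 ± 0.692 to 4.63 ± 1.93 CPM (limma adjusted p = 0.0136). Mmp11 rose with monocytes from 58.2 ± 17.7 to 107 ± 30.2 CPM (limma adjusted p = 0.0219), though these groups overlapped. With TRMs Mmp11 did not pass (91.1 ± 19.9 CPM, limma adjusted p = 0.0935). Without TRM replicate 2 the calls with TRMs were 2, both higher. The fall of Mmp15 with TRMs was lost when replicate 1 (0.12) or 3 (0.108) of the group alone was left out, or TRM replicate 2 (0.135) or 3 (0.126), and the rise of Mmp19 without TRM replicate 2 (0.0625).

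The list of plasmin system genes, MMP activators and pericellular inhibitors covers the protease cascade that turns pro-MMPs into active enzymes. Of 21 tested, 8 rose and 1 fell with TRMs (42.9% called, 18.4% of all genes) and 6 rose and 8 fell with monocytes (66.7%, against 27.3%). Their median log2 changes were 0.50 and 0.10. The convertase Furin, which removes the propeptide of Mmp14, rose 1.88-fold with TRMs and 1.55-fold with monocytes (limma adjusted p = 0.00149 and 0.00931). Other genes of the list had lower means with monocytes. Pcsk6 was at 71.3 ± 10.4 CPM alone, 69.1 ± 2.80 with TRMs and 40.7 ± 8.85 with monocytes. In the same order St14 was at 372 ± 61.6, 345 ± 113 and 216 ± 64.5 CPM. Spint1 was at 375 ± 54.7, 258 ± 76.4 and 188 ± 57.1 CPM. Bsg, the MMP inducer basigin, rose 2.55-fold with TRMs (limma adjusted p = 0.000437), and its fold of 1.45 with monocytes did not pass (0.0556). Plaur, the urokinase receptor that focuses plasmin formation at the cell surface, fell from 673 ± 90.2 CPM to 310 ± 59.6 with TRMs and 301 ± 6.00 with monocytes (limma adjusted p = 0.0003 and 0.000181). The protease inhibitor Serpine2 rose 2.42-fold with TRMs and 3.14-fold with monocytes (limma adjusted p = 0.0027 and 0.000331). The procollagen proteinase enhancer Pcolce rose 1.83-fold and 2.33-fold (limma adjusted p = 0.00642 and 0.000483). Serpinb2, an inhibitor of urokinase, had 0, 0 and 6 reads alone, 34, 68 and 80 with TRMs and 31, 111 and 90 in the monocyte group (limma adjusted p = 0.000773 and 0.000515). Its libraries alone hold too few reads for a firm fold. The 14 calls with monocytes became 8 without alone replicate 1 or monocyte replicate 1 and 9 without alone replicate 3.

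A list of 29 genes holds transcription factors reported to act on MMP genes and the TGF-beta receptor Tgfbr2. Of these, 4 rose and 4 fell with TRMs (27.6% called, 18.4% of all genes), and 6 rose and 8 fell with monocytes (48.3%, against 27.3%). Their median log2 changes were 0.04 and -0.09. The AP-1 subunit Jun fell from 3291 ± 472 CPM to 2044 ± 146 with TRMs and 1484 ± 206 with monocytes (limma adjusted p = 0.0109 and 0.000263). The related factor Atf3 fell 1.94-fold and 2.28-fold (limma adjusted p = 0.00593 and 0.000994). Ets2 fell 1.58-fold and 1.75-fold, whereas the ETS factor Elk3 rose 1.81-fold and 2.06-fold. Runx2, a runt factor that acts on the Mmp13 gene in bone, rose 2.36-fold with TRMs and 2.35-fold with monocytes (limma adjusted p = 0.00685 and 0.0049). The 8 calls with TRMs became 5 without alone replicate 3 or TRM replicate 2. The 14 with monocytes became 8 without alone replicate 1 or 3 or monocyte replicate 2.

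Of 22 other secreted or lysosomal matrix proteases and inhibitors, 4 rose and 3 fell with TRMs (31.8% called, 18.4% of all genes) and 4 rose and 5 fell with monocytes (40.9%, against 27.3%). Their median log2 changes were 0.29 and 0.24. Adamts4, which cleaves aggrecan and versican, rose from 3.18 ± 3.02 CPM to 39.2 ± 18.0 with TRMs and 53.6 ± 32.9 with monocytes (limma adjusted p = 0.000947 and 0.000373). Its fold of 16.1 with TRMs was 9.73 without alone replicate 1 and 27.5 without alone replicate 2. The fold of 20.1 with monocytes was 12.2, 34.4 and 30.6 without alone replicate 1, alone replicate 2 and monocyte replicate 3. The serine protease Prss22 rose 2.55-fold with TRMs and 1.41-fold with monocytes (limma adjusted p = 0.000177 and 0.0469). Bmp1, the procollagen C-proteinase, rose 1.57-fold with TRMs and 1.82-fold with monocytes, the first lost without alone replicate 1 (0.0604) or 2 (0.0505) or TRM replicate 2 (0.0974). The membrane serine protease Tmprss2 fell 3.00-fold and 3.21-fold (limma adjusted p = 0.00369 and 0.00175), and Prss23 fell 1.71-fold and 3.09-fold (limma adjusted p = 0.0478 and 0.000468). The 7 calls with TRMs became 3 without alone replicate 1 or TRM replicate 2 and 4 without alone replicate 3.

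A list of 28 genes holds cytokines, growth factors and receptors that act on MMP genes and the prostaglandin synthase Ptgs2. Of these, 7 rose and 2 fell with TRMs (32.1% called, 18.4% of all genes) and 5 rose and 6 fell with monocytes (39.3%, against 27.3%). Their median log2 changes were 0.06 and -0.16. Il1a, an interleukin-1 cytokine that induces MMP genes in many cells, rose from 44.8 ± 2.96 CPM to 241 ± 20.6 with TRMs and 97.6 ± 18.1 with monocytes (limma adjusted p = 7.5e-07 and 0.000231). It was higher with TRMs than with monocytes (2.5-fold, limma adjusted p = 0.00573), a call lost without TRM replicate 2 (0.0509). Its receptor Il1r1 fell with TRMs (171 ± 32.9 to 89.5 ± 9.45 CPM, limma adjusted p = 0.00177) and with monocytes (to 120.2 ± 14.4 CPM, limma adjusted p = 0.0366). Fgf2, a fibroblast growth factor, rose 4.68-fold and 5.38-fold, the cytokine Csf2 3.16-fold and 2.37-fold and Tgfb1 2.6-fold and 2.19-fold. The receptor Egfr was the other gene of this list called between the co-cultures (11 ± 1.26 CPM with TRMs, 3.73 ± 0.74 with monocytes, limma adjusted p = 0.0283), a call lost when only these groups entered the fit (0.0504) and without alone replicate 3, any TRM replicate or monocyte replicate 1 or 2 (adjusted p 0.0529 to 0.16). The 9 calls with TRMs became 14 in DESeq2, and the 11 with monocytes became 6 without alone replicate 3.

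In the authors' deposited tables all 8 genes were listed for both comparisons with tumour cells alone, and their false discovery rate was under 0.05 for 6 with TRMs and 7 with monocytes, the same genes as here. In the authors' deposited table Mmp12 had log2 fold changes of 2.71 and 3.54 and Mmp9 of 3.40 and 4.88.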

How the data were processed

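The 9 libraries, 3 per group by the sample labels, hold RNA of sorted tumour cells. Per the submitters' processing notes STAR 2.5, edgeR and the mm10 build were used; the sources used here name no counting tool or annotation. The deposited values are a normalised signal in CPM: reads plus 0.5 over a TMM-scaled library size. Whole reads were recovered for 100% of 111051 values within 1e-06 of a read, and the lowest gene total was 91 reads. The authors' deposited comparison tables hold log2 fold changes, a mean log2 level, a likelihood ratio score and p-values.

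Genes were filtered with filterByExpr (minimum count 10, minimum total 15). Log2 values were tested with limma 3.58.1 (trended prior, 6 residual degrees of freedom) in R 4.3.3 over all 9 libraries and 12326 genes. Alternatives used edgeR 4.0.16, DESeq2 1.42.0, voom, other scalings, filters and an added 1 CPM, the 2 groups alone, a replicate block and each library left out. The procedure was tested on simulated counts. Replicates differed by far more than sampling noise (chi-square per gene 21.5 to 91.5). Exon lengths and positions come from GENCODE M21; Python 3.11.15 was used for them.

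The members and lists were chosen with earlier results of these data known. Named were the 8 genes; up to 4 called genes per list and comparison by smallest p; the 3 nearest profiles of each called member, sex-linked and predicted genes passed over; genes overlapping a member; and the listed markers. Named beyond that, after their values were seen, were Mmp1b, Mmp2, Mmp11, Reck, Pcsk6, St14, Spint1, Il1r1, Tgfbr2 and Ptgs2.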

Additional observations from a re-analysis of the deposited data

How the results depend on the processing

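Over the 19 alternatives, counts of the 8 genes called stayed within 4 to 6 with TRMs, 6 to 7 with monocytes and at 0 between the co-cultures; with 1 library left out they were 5 to 6, 7 to 7 and 0 to 0. The 6 calls without TRM replicate 1 include a lower Timp3 in place of Mmp12. No direction changed with the scaling. Between the co-cultures 2 signs turned, neither called: Mmp14 (with 1 library left out, log2 -0.0282 to 0.24, below 0 without monocyte replicate 3) and Timp3 (log2 -1.17 to 0.0772, above 0 without TRM replicate 3); the cause was not tested. With 1 library left out, counts over all genes were 1219 to 2593 with TRMs (2262 in full), 2239 to 3529 with monocytes (3366) and 0 to 134 between the co-cultures (49). Leaving out TRM replicate 2 gave the 1219, and leaving out replicate 1 or 3 of the group alone gave 1442 or 1391. The 2239 came without alone replicate 3. Between the co-cultures the count was 336 in DESeq2, 86 in limma-voom, 75 with 1 CPM added, 79 with the replicate block, 0 without TRM replicate 2 and 134 without monocyte replicate 3. Same-numbered libraries correlated in their deviations from group means at -0.02 to 0.43, mostly with a positive sign, and others at -0.40 to 0.26. These ranges overlap and do not settle whether the numbers pair the samples. With the replicate block 6, 7 and 0 of the 8 genes were called, and 2392 and 3511 of all genes in the comparisons with tumour cells alone. Depth limits Mmp9, Mmp12 and Timp3, which had 34, 33 and 168 reads over the 3 libraries alone.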
